A study of Mus musculus with 4 samples.

Results

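The lysosome genes described here are 37 genes chosen by name: Gpnmb and 36 genes that encode lysosomal enzymes and their cofactors, membrane proteins, subunits of the proton pump, the transcription factors that control them and the autophagy receptor Sqstm1. All 37 had a row among the 17568 genes of the deposited table, and all 37 reached the mean of 1 CPM (normalized counts per 1000000 reads) needed to be tested, as did 13568 genes in all. RNA was sequenced on the SOLiD platform. It came from forelimb buds of wild-type Swiss Webster mice, taken at E10.25 (31 to 34 somites). The buds had been cultured in control medium (2 libraries) or in medium with cyclopamine, spelled "cyclopmaine" in the labels (2 libraries). Cyclopamine is a plant alkaloid that blocks Smoothened, the membrane protein that passes on the Hedgehog signal. The submitters call the libraries biological replicates. Dose, vehicle, culture time and how many limbs made up a library are not stated in the sources used here, and both groups share culture outside the embryo.

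Lysosomes are acidic compartments in which hydrolases break down proteins, lipids, glycans and nucleic acids delivered by endocytosis and autophagy. A proton pump, the V-ATPase, acidifies the lumen, and heavily glycosylated membrane proteins line it and move ions, amino acids and sterols across it. Many of the genes are switched on together by TFEB, TFE3 and MITF, related helix-loop-helix factors that bind an E-box with the core CACGTG, the so-called CLEAR element. GPNMB is a transmembrane glycoprotein known from macrophages, osteoclasts and pigment cells, and its gene is known to be induced when lysosomes are under stress.

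The promoters show which of the genes carry this element. RefSeq windows (GRCm38.p6) of 300 bases, from 250 before to 50 after an annotated start, were found for 33 of the 37 genes, with Asah1, Atp6v1h, Ctsb and Npc1 absent from the table used. Both strands were searched for CACGTG, for the longer TCACGTGA that contains it, for the full CLEAR palindrome that adds a base at each end of TCACGTGA, and for the separate MITF site TCATGTGA. CACGTG stood in the promoter of 11 of the 33 genes (33.3%), against 8.09% of all 27025 genes with a promoter and 11.7% of the 10015 of those that were tested. TCACGTGA stood in 6 (Atp6v0d1, Atp6v1a, Ctsa, Ctsd, Gla and Mcoln1), or 18.2%, against 1.12% and 2.18%. The full palindrome stood in 0 of the 33, against 0.37% of all genes. TCATGTGA stood in 4 (Gla, Grn, Ppt1 and Tpp1), against 1.15% of all genes. The 5 promoters below are printed 5′ to 3′ on the gene's strand to show Gpnmb, where no CACGTG or TCATGTGA was found in this window, beside a member of each main role that holds CACGTG, given in capitals. They lie at chr6:49036268-49036567 on the plus strand (Gpnmb), chr7:142387778-142388077 on the minus strand (Ctsd), chr2:164833523-164833822 on the plus strand (Ctsa, the downstream of its 2 windows), chr8:13158911-13159210 on the plus strand (Lamp1) and chr8:105566015-105566314 on the minus strand (Atp6v0d1).
Gpnmb: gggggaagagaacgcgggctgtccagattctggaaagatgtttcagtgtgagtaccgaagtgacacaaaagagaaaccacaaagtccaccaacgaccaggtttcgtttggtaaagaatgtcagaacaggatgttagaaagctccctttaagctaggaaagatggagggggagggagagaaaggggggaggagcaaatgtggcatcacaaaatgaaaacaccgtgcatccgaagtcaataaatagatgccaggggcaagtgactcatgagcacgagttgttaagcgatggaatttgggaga
Ctsd: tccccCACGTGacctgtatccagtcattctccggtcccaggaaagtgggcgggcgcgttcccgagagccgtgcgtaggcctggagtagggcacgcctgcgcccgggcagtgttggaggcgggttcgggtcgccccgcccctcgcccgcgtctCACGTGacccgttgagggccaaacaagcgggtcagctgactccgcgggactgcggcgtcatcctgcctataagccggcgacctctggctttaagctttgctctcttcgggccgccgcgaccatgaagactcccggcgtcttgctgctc
Ctsa: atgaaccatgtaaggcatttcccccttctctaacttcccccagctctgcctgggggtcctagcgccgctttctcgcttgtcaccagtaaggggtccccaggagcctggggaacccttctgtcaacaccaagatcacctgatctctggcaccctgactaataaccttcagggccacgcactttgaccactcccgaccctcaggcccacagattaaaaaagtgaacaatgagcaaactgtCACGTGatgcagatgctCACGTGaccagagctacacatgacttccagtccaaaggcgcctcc
Lamp1: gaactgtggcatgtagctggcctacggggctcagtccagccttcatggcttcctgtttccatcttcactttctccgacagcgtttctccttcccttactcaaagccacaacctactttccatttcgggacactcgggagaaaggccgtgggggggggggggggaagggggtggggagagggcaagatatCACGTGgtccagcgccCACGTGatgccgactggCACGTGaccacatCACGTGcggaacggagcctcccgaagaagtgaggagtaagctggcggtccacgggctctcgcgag
Atp6v0d1: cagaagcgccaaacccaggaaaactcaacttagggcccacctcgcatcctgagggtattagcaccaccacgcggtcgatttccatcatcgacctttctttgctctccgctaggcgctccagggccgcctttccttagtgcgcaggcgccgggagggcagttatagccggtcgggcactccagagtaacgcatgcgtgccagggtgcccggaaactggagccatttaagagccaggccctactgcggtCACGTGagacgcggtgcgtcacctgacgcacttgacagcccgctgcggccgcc
A match describes the sequence only and does not show that a factor binds there.

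The 4 libraries held between 9779589 and 13555492 gene-assigned reads, and 3 reads, taken as the floor of detection, corresponded to 0.22 to 0.31 CPM. Gli1, a transcription factor gene induced by Hedgehog signalling, fell with the treatment (log2 fold change -3.10, limma adjusted p = 4.32e-06), and measured 56.2 and 56.7 CPM under control medium, against 8.05 and 4.70 CPM under cyclopamine. Of 8 limb mesenchyme markers, Prrx1 measured 560 to 783 CPM across the libraries and Tbx5, the forelimb T-box gene, 193 to 226 CPM. The lowest, Msx1, measured 10.6 to 14.3 CPM. In cyclopamine 5 of the 8 were higher and 3 lower, where 51% of all genes tested were higher. Both cyclopamine libraries lay above both controls for 3 (37.5%), against 16.8% of all genes. They lay below both for 2 (25%, Fgf10 and Hand2), against 15.8% of all genes. Together the 37 genes took 0.286% and 0.254% of the normalized signal in control 1 and control 2, and 0.303% and 0.306% in cyclopamine 1 and cyclopamine 2. Per kilobase of annotated exon (GENCODE vM21), the control levels were highest for Lamp1 (91.3 CPM per kb), Psap (71.9) and Ctsd (49.1). They were lowest for Tfeb (0.611 CPM per kb), Mitf (0.528) and Gpnmb (0.0835).

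Gpnmb was the member that rose most with cyclopamine. It had 2 and 12 reads in control 1 and control 2, and 63 and 53 reads in cyclopamine 1 and cyclopamine 2. In CPM these were 0.206 (95% Poisson interval 0.025 to 0.745), 0.882 (0.456 to 1.54), 4.97 (3.82 to 6.36) and 4.29 (3.22 to 5.62). Control 1 lay under the floor of 3 reads, control 2 above it, and both cyclopamine libraries lay well above both controls. Over pooled reads the ratio was 7.72, from 116 reads against 14, with an exact 95% interval of 4.42 to 14.6. Such intervals hold counting error alone and leave out the spread between libraries. No molecular identifiers mark which reads came from the same molecule, so even the counting error may be understated. On the log2(CPM + 0.5) scale the change was 2.37 (SE 0.43, limma adjusted p = 0.0299), and the scale understates changes of genes this low. In the authors' deposited table the log2 fold change of Gpnmb is 2.97, with a false discovery rate of 7.7e-05. Gpnmb reached the mean of 1 CPM needed for testing only through its high group, with means of 0.544 CPM in the controls and 4.63 CPM in cyclopamine. It was put beside the lysosome genes with its rise already known, so its test is a description. Leaving out any of the 4 libraries kept its call, with changes from 1.89 without control 1 to 2.86 without control 2 (largest adjusted p = 0.048). Each of these fits leaves a group with 1 library, which is assumed to vary like the other group, so the kept calls add no independent support. The change was 3.11 with a pseudocount of 0.1 and 1.90 with a pseudocount of 1. The call ended without the filter on low values (limma adjusted p = 0.246), with values scaled to total reads (0.0638) and without the intensity trend in the variance (0.214). The gene spans chromosome 6, 49036546 to 49070929, on the plus strand of mm10, in 13 exon blocks that overlap no other annotated exon. In whole limb buds, more cells of a type and more RNA per cell cannot be told apart.

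The summed markers of macrophages and pigment cells, which are known to express Gpnmb, overlapped between the groups, while platelet markers lay higher in both cyclopamine libraries. The summed level of 16 macrophage markers was 24.5 and 24.1 CPM under control medium, against 20.4 and 33.2 CPM under cyclopamine, so the groups overlapped. Of the 10 macrophage markers that could be tested, 5 were higher and 5 lower, and 0 had an unadjusted p under 0.05. Csf1r, the growth factor receptor gene of macrophages, measured 5.47 and 4.19 CPM against 3.63 and 5.10 CPM. Pigment cell markers summed to 5.57 and 4.04 CPM under control medium, against 7.49 and 4.13 CPM under cyclopamine, most of it Tyr. Dct, an early melanoblast gene, lay at 0.206 and 0.147 CPM against 0.237 and 0.567 CPM, without overlap but near the floor of detection. Pmel, a close relative of Gpnmb in sequence, lay at 0.405 to 0.825 CPM with overlap, and Slc45a2 was at 0 in control 2 and cyclopamine 2. No row was found in the deposited table for the 3 further pigment markers listed (Tyrp1, Mlana and Oca2). The same was true of the erythroid marker Hba-a1. Platelet and megakaryocyte markers summed to 16.2 and 12.6 CPM under control medium, against 24.2 and 31.0 CPM under cyclopamine. Both cyclopamine libraries lay above both controls for each of the 3 tested, against 16.8% of all genes, and 0 passed the adjusted threshold. Erythroid markers summed to 1305 and 606 CPM against 2134 and 1254 CPM, and these sums overlapped. All 6 erythroid markers tested were higher in cyclopamine, as were 51% of all genes tested. Of the 6, 2 lay above both controls (33.3%, against 16.8% of all genes) and 0 passed the adjusted threshold. Neuron markers went the other way, with all 6 lower and 4 past the adjusted threshold, where 0.236% of all genes were called lower. They summed to 104 and 110.4 CPM against 68.5 and 59.4 CPM. Endothelial markers summed to 365 and 369 CPM against 397 and 456 CPM, without overlap. All 6 endothelial markers were higher, against 51% of all genes tested, with a median log2 fold change of 0.22 and 0 past the adjusted threshold. No gene with a row in the deposited table was at 0 in all 4 libraries, so the same holds for each marker with a row. The part of platelet, erythroid, endothelial and neuron RNA in the rise of Gpnmb, or in the lysosome genes below, was not tested.

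**Figure D1:**
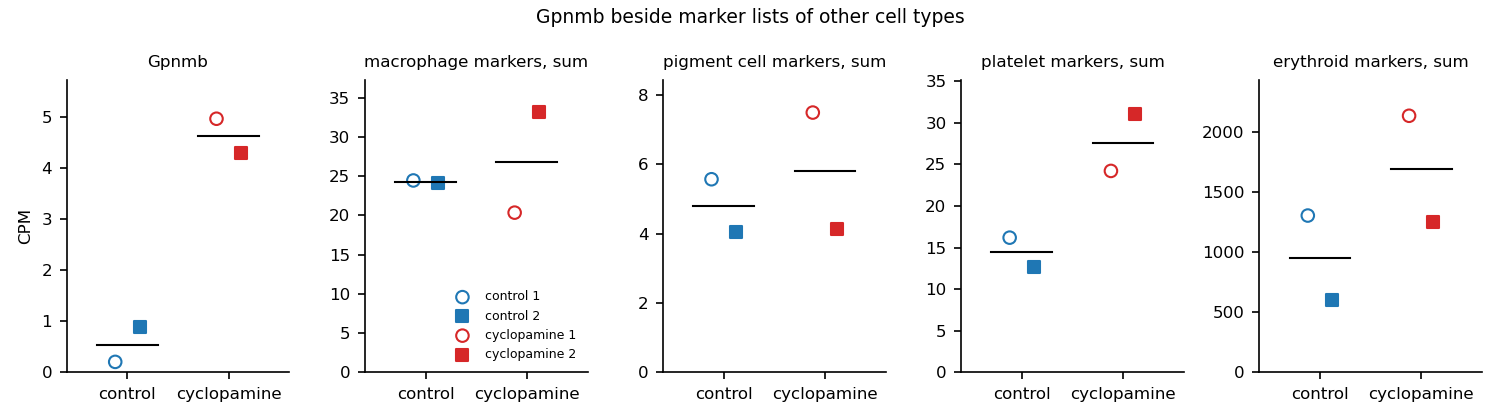
Each panel gives CPM in the 4 libraries (points) and the group mean (line), for Gpnmb and for the summed levels of 4 marker lists, on axes that start at 0. Gpnmb lies at 4.29 and 4.97 CPM in cyclopamine against 0.206 and 0.882 CPM in the controls. The platelet sum also lies higher in both cyclopamine libraries, and the macrophage, pigment and erythroid sums overlap between the groups.

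The other 36 genes moved far less. None of them passed the threshold (0 of 36, with a smallest limma adjusted p of 0.578), and their ratios of mean CPM ran from 0.868 to 1.44. Gpnmb was thus 1 of 37 called, and it had been chosen with its rise already known. Across all genes tested 0.28% were called, 0.0442% higher and 0.236% lower. Without Gpnmb, an unadjusted p under 0.05 was reached by 2 of the 36 genes, Atp6v0d1 and Ctsd, each higher in cyclopamine. Across all genes tested 5.82% reached it (3.04% higher and 2.78% lower). Direction was less even, with 29 of the 36 genes (80.6%) higher in cyclopamine, against 51% of all genes tested. Both cyclopamine libraries lay above both controls for 16 of the 36 (44.4%), against 16.8% of all genes. They lay below both controls for 1 (2.78%), against 15.8% of all genes. The median log2 fold change of the 36 was 0.14, and that of all genes tested was 0.0045.

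The 2 control libraries differed from each other in these genes, mostly in the same direction. Control 1 lay above control 2 for 27 of the 36 genes. The median over the 36 genes in control 2 minus that in control 1 was -0.17 on the log2 scale. Over all genes tested, control 2 lay above control 1 for 6869 of 13568, and this difference was 0.0014. Between the cyclopamine libraries, cyclopamine 2 lay above cyclopamine 1 for 13 of the 36, with a difference of -0.08. For 23 of the 36 the gap between the controls was larger than the difference between the groups. A gap between 2 single libraries varies more than a difference between means of 2, and the share over all genes was not computed. The count therefore does not set these genes apart. Without control 2, the lower library for most of these genes, 26 of the 37 genes were higher in cyclopamine and the median of the 36 was 0.08. Without control 1 these were 32 and 0.19. Leaving out each library in turn, 21 of the 37 (Gpnmb among them) stayed above 0 throughout, 2 stayed below and 14 changed sign. The matching shares over all genes were not computed.

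**Figure D2:**
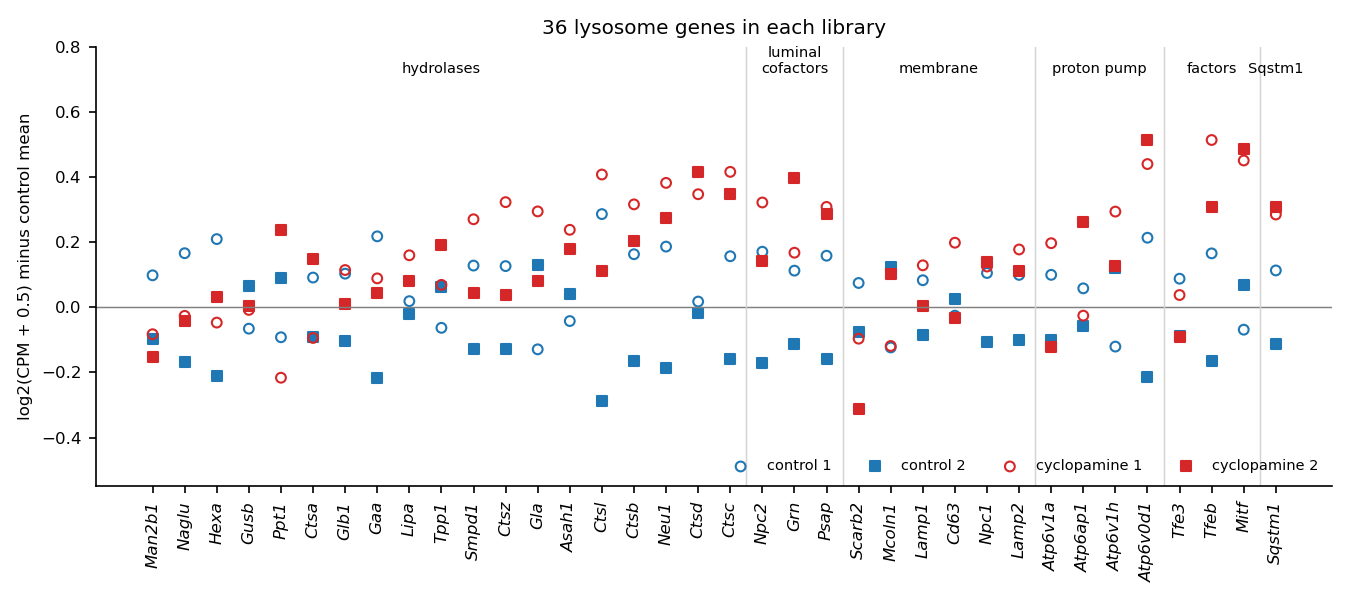
Each point is a gene's log2(CPM + 0.5) in a library minus the mean of the 2 controls, for the 36 lysosome genes other than Gpnmb, grouped by role and ordered by fold change. Control 1 lies above control 2 for 27 of the 36 genes. The groups overlap for 19 of the 36, against 9147 of all 13568 genes tested.

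Among the 19 hydrolase genes 15 were higher and 4 lower in cyclopamine, where 51% of all genes tested were higher, and 0 passed the test. Both cyclopamine libraries lay above both controls for 7 (36.8%), against 16.8% of all genes. The median log2 fold change was 0.13, running from 0.06 without control 2 to 0.17 without control 1. Ctsd, the aspartic protease cathepsin D, measured 117 and 114 CPM under control medium, against 147 and 154 CPM under cyclopamine (0.38, SE 0.14, unadjusted p = 0.0183, limma adjusted p = 0.661). The groups of Ctsd did not overlap, and its controls were closer to each other than those of most members. The change stayed between 0.35 and 0.42 with any library left out. Its promoter, printed above, holds CACGTG 245 and 98 bases before the start, the nearer within TCACGTGA. Exons of Ctsd overlap the gene model Gm49369 on the same strand, and how such reads were counted is not stated in the sources used here.

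The cysteine proteases of the papain family gave a mixed picture. Ctsb, cathepsin B, measured 196 and 156 CPM under control medium, against 218 and 201 CPM under cyclopamine (log2 fold change 0.26, SE 0.16). Ctsc, the dipeptidyl peptidase cathepsin C, measured 16.2 and 12.9 CPM against 19.5 and 18.6 CPM (0.38, SE 0.21). For both genes the cyclopamine libraries lay above the controls by less than the controls differed, or by little more. Ctsl, cathepsin L, measured 134 and 89.8 CPM against 146 and 118 CPM, and its groups overlapped. Its log2 fold change of 0.26 became -0.03 without control 2. Ctsz, cathepsin Z, measured 33.1 and 27.7 CPM against 38.0 and 31.1 CPM, again with overlap. Ctsa, a serine carboxypeptidase that also protects lysosomal galactosidase and sialidase, measured 128 and 113 CPM against 113 and 134 CPM. Its log2 fold change was 0.03, and its promoter, printed above, holds TCACGTGA in 2 places. Tpp1, a serine protease lost in a neuronal storage disease, measured 54.2 and 59.1 CPM against 59.4 and 64.7 CPM.

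Hydrolases of glycans centred near no change. Neu1, the lysosomal sialidase, had the largest change of them, at 20.3 and 15.6 CPM under control medium, against 23.4 and 21.6 CPM under cyclopamine (log2 fold change 0.33, SE 0.20), with no overlap. Gla, the alpha-galactosidase, measured 13.9 and 16.8 CPM against 18.9 and 16.2 CPM. Gaa, which degrades glycogen, measured 51.4 and 37.8 CPM against 46.9 and 45.5 CPM. The groups of Gla and Gaa overlapped. Glb1, the beta-galactosidase, had a log2 fold change of 0.06, and Gusb, the beta-glucuronidase, one of -0.0021, which turned to 0.0048 when values were scaled to total reads. Hexa, a hexosaminidase subunit, had -0.01, Naglu, which acts on heparan sulfate, -0.03 and Man2b1, the alpha-mannosidase, -0.12. Of these, Man2b1 measured 52.2 and 45.5 CPM under control medium, against 46.0 and 43.8 CPM under cyclopamine, and it stayed below 0 with any library left out. Naglu, at 3.75 to 4.85 CPM, was the hydrolase with the widest error (SE 0.31).

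Among the hydrolases of lipids, both cyclopamine libraries lay slightly above both controls for Asah1 and Lipa, as they did for 16.8% of all genes. Asah1, the acid ceramidase, measured 52.7 and 55.9 CPM under control medium, against 64.1 and 61.5 CPM under cyclopamine (log2 fold change 0.21, SE 0.15). Lipa, the acid lipase that frees cholesterol from its esters, measured 37.7 and 36.7 CPM against 41.6 and 39.3 CPM (0.12, SE 0.16). Both genes had no overlap between the groups, and neither passed the test. Smpd1, the acid sphingomyelinase, measured 21.3 and 17.7 CPM against 23.5 and 20.0 CPM, with overlap. Ppt1, which removes palmitate from proteins, measured 54.5 and 61.9 CPM against 49.9 and 68.5 CPM, so that its cyclopamine libraries lay on either side of both controls.

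The 3 luminal cofactors had the highest median of the roles with 3 or more genes apart from the transcription factors, 0.28, which ran from 0.14 without control 2 to 0.40 without control 1. Psap, the precursor of the saposins that present sphingolipids to their hydrolases, measured 219 and 176 CPM under control medium, against 243 and 239 CPM under cyclopamine (log2 fold change 0.30, SE 0.16, limma adjusted p = 0.901). Grn, the progranulin precursor, measured 65.2 and 55.7 CPM against 67.8 and 79.5 CPM (0.28, SE 0.16). Npc2, which carries cholesterol in the lumen, measured 239 and 189 CPM against 266 and 234 CPM. Psap and Grn had no overlap, whereas cyclopamine 2 lay under control 1 for Npc2. The gap between the controls was wider than the difference between the groups for each of Psap and Npc2.

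Membrane proteins were the least changed of the main roles, with 4 of 6 higher, 2 lower, 0 past the test and a median of 0.07. That median ran from 0.04 without control 2 to 0.13 without cyclopamine 2. Lamp1, a main structural protein of the lysosomal membrane, measured 258 and 230 CPM under control medium, against 267 and 245 CPM under cyclopamine. Lamp2, its paralogue and a receptor for chaperone-mediated autophagy, measured 186 and 162 CPM against 196 and 187 CPM (log2 fold change 0.15, SE 0.15). Lamp1 overlapped between the groups and Lamp2 did not. The promoter of Lamp1, printed above, holds CACGTG in 4 places within 61 bases before the start, and its log2 fold change was 0.07 (SE 0.15).

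Scarb2, which carries glucocerebrosidase to the lysosome, was the member below both controls. It measured 53.4 and 48.1 CPM under control medium, against 47.4 and 40.8 CPM under cyclopamine (log2 fold change -0.20, SE 0.16). The separation was small, with 48.1 CPM in control 2 against 47.4 CPM in cyclopamine 1. Cd63, a tetraspanin of late endosomes, measured 132 and 137 CPM against 154 and 131 CPM. Npc1, which exports cholesterol across the membrane, measured 80.4 and 69.4 CPM against 81.5 and 82.3 CPM (0.13, SE 0.15). Mcoln1, a calcium channel of the lysosome, measured 29.1 and 34.6 CPM against 29.2 and 34.1 CPM. The values of Mcoln1 were nearly the same in the 2 groups, and each group held a lower and a higher library.

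All 4 proton pump genes were higher in cyclopamine, 2 of them above both controls (50%, against 16.8% of all genes). None passed the test (0 of 4), and the median was 0.16. That median ran from 0.16 without control 1 to 0.25 without cyclopamine 2. Atp6v0d1, a subunit that joins the membrane sector to the rotor stalk, measured 77.1 and 57.2 CPM under control medium, against 90.2 and 95.0 CPM under cyclopamine. Its log2 fold change of 0.48 (SE 0.17, unadjusted p = 0.0113) was the largest of the 36 genes, and it did not pass over all genes (limma adjusted p = 0.578). Control 2 lay well under control 1 for this gene, and the change was 0.26 without control 2 and 0.69 without control 1. In the authors' deposited table the log2 fold change of Atp6v0d1 is 0.47, with a false discovery rate of 0.555. Its promoter, printed above, holds CACGTG from 3 bases before the start, within TCACGTGA.

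The other pump subunits among the members differed little. Atp6v1h, a regulatory subunit of the cytosolic sector, measured 37.04 and 43.9 CPM under control medium, against 49.5 and 44.1 CPM under cyclopamine. Control 2 and cyclopamine 2 were almost equal for it. Atp6ap1, an accessory protein, measured 84.8 and 78.2 CPM against 80.0 and 97.7 CPM. Atp6v1a, the catalytic subunit, measured 155 and 135 CPM against 166 and 133 CPM and had a log2 fold change of 0.04. Both of these overlapped between the groups and changed sign with a library left out. The promoter of Atp6v1a holds TCACGTGA.

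Of the 3 transcription factors, 2 were present at low levels with both cyclopamine libraries above both controls (66.7%, against 16.8% of all genes). None passed the test (0 of 3). Tfeb, the main activator of lysosome genes, measured 3.92 and 3.01 CPM under control medium, against 5.13 and 4.38 CPM under cyclopamine (log2 fold change 0.41, SE 0.32). Mitf, known chiefly from pigment cells and osteoclasts, measured 3.10 and 3.45 CPM against 4.65 and 4.78 CPM (0.47, SE 0.31). Both errors were wide beside the changes, at 30 to 65 reads a library. Tfe3, the abundant factor of the family here, measured 42.8 and 37.8 CPM against 41.3 and 37.8 CPM (-0.03, SE 0.17). Sqstm1, the p62 cargo receptor of autophagy and a known target of these factors, measured 111 and 94.8 CPM against 125 and 127 CPM (0.30, SE 0.15, limma adjusted p = 0.880). Its groups did not overlap.

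**Figure D3:**
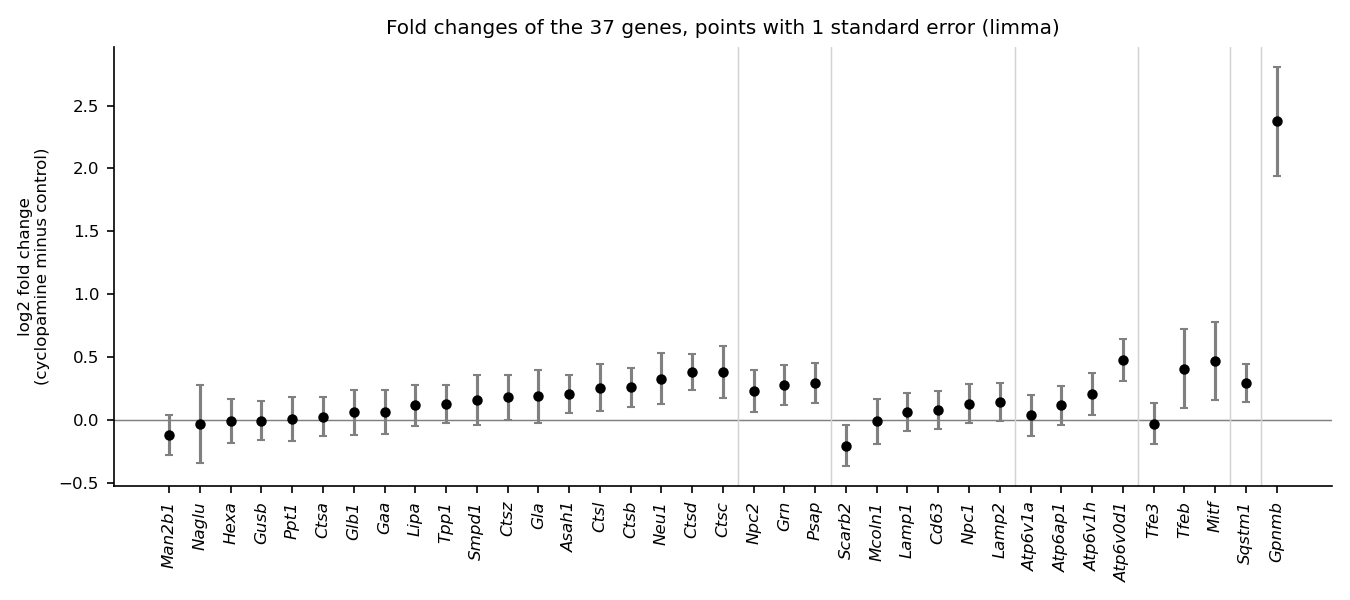
Points give the log2 fold change (cyclopamine minus control) of each of the 37 genes on the log2(CPM + 0.5) scale, with 1 standard error from limma, grouped by role. Gpnmb lies at 2.37, and the other 36 genes lie between -0.20 (Scarb2) and 0.48 (Atp6v0d1).

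Genes with the motif had a lower median than those without it for CACGTG and TCACGTGA, and a higher median for TCATGTGA. The 6 genes with TCACGTGA had a median log2 fold change of 0.11, from -0.01 (Mcoln1) to 0.48 (Atp6v0d1). The 27 genes with a promoter but without it had a median of 0.13. For CACGTG these medians were 0.07 over 11 genes and 0.15 over 22 genes, the latter including Gpnmb. Both cyclopamine libraries lay above both controls for 2 of the 11 and for 11 of the 22, against 16.8% of all genes. For TCATGTGA the medians were 0.16 over 4 genes, all 4 higher in cyclopamine, and 0.12 over 29 genes. These are descriptions of the chosen genes and carry no test.

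Of 29 lysosomal hydrolases outside the chosen set 21 were higher and 8 lower, with 0 past the test and a median of 0.13. Both cyclopamine libraries lay above both controls for 7 (24.1%) and below both for 6 (20.7%), against 16.8% and 15.8% of all genes. Manba, the beta-mannosidase, was the furthest apart, at 3.20 and 2.57 CPM under control medium, against 4.58 and 7.94 CPM under cyclopamine (log2 fold change 0.96, SE 0.33, limma adjusted p = 0.585). Arsa, the sulfatase that acts on sulfatides, measured 16.2 and 16.7 CPM against 20.4 and 22.4 CPM. Acp5, the tartrate-resistant phosphatase of macrophages and osteoclasts, overlapped between the groups. Among 19 tested membrane proteins 11 were higher and 8 lower, with 0 past the test and a median of 0.03. Ostm1, the partner of a lysosomal chloride channel, measured 7.84 and 10.1 CPM against 13.6 and 13.2 CPM, and Tmem55b, which places lysosomes along microtubules, measured 39.6 and 49.7 CPM against 55.0 and 60.0 CPM. Cd68, a macrophage lysosome glycoprotein, went the other way, at 5.88 and 8.08 CPM against 3.55 and 5.27 CPM (-0.61, SE 0.30). Of 12 other pump subunits 10 were higher, 4 of them (33.3% of the list, against 16.8% of all genes) above both controls and 0 past the test, with a median of 0.14. Atp6v1g1 measured 62.6 and 74.8 CPM against 85.9 and 82.8 CPM, the smallest p of that list (0.0705, unadjusted).

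**Figure D4:**
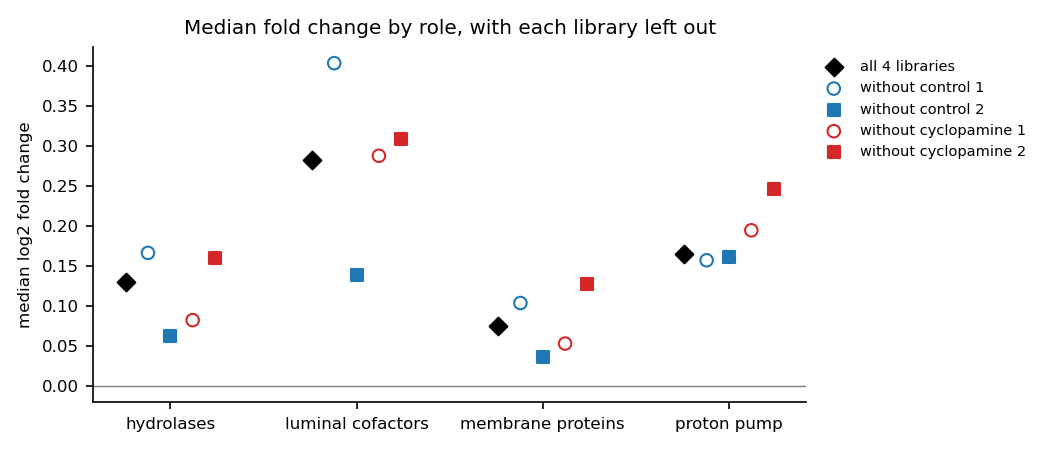
Symbols give the median log2 fold change of the hydrolases (19 genes), luminal cofactors (3), membrane proteins (6) and proton pump genes (4), over all 4 libraries and with each library left out. All medians lie above 0, from 0.04 to 0.40, and leaving out control 2 lowers that of the luminal cofactors from 0.28 to 0.14.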

How the data were processed

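Values in the deposited table are a normalized signal, counts per 1000000 of an effective library size, as the authors made it. The submitters' processing notes name mm10, edgeR 3.4.2, HTSeq 0.5.4p5, TopHat2 2.0.9, SAMtools and Bowtie, without saying what each did. The annotation, strand handling and multimapping rule are not stated in the sources used here. Exons of 13 of the 37 genes overlap another annotated gene (GENCODE vM21), 11 on the opposite strand and 3 on the same strand, so their values may hold reads of that neighbour. All values (100%) were whole multiples, within 0.01, of what a read is worth in its library, so reads could be recovered. Log2 fold changes and p-values were also deposited by the authors for the comparison, with the test not stated.

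The groups were compared with limma 3.58.1 (R 4.3.3) over genes whose mean reached 1 CPM, on log2(CPM + 0.5), allowing the variance to follow intensity. The p-values were Benjamini-Hochberg adjusted over all 13568 genes with a threshold of 0.05. With 2 libraries a group, an exact permutation test cannot go below p = 0.333, so the test leans on the spread shared across genes, and it measures only the spread between these libraries. The procedure was tested on simulated data. All 37 genes were named, with values for each library given by smallest p within each role, and up to 3 genes of other lists. Some are named beyond that rule after their values were seen. The genes and lists were chosen with earlier results of these data known, and no list was tested as a set. Alternatives were edgeR 4.0.16 and DESeq2 1.42.0 on recovered reads, other scalings, filters and pseudocounts, no trend, a replicate block, and leaving out each library.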

Additional observations from a re-analysis of the deposited data

How the results depend on the processing

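Gpnmb stayed higher under each setting that could test it, and its call depended on the model. The change was 3.11 with a pseudocount of 0.1 (adjusted p = 0.045) and 1.90 with a pseudocount of 1 (adjusted p = 0.0272). The call ended without a filter on low values (2.37, adjusted p = 0.246), with scaling to the total of reads (2.38, adjusted p = 0.0638) and without an intensity trend (2.37, adjusted p = 0.214). Under these 3 settings 0 members were called, as with a filter at a mean of 5 CPM, which left Gpnmb untested. The quasi-likelihood test of edgeR (adjusted p = 0.0375) and DESeq2 (adjusted p = 0.00714) kept it. Limma called 38 genes in all, 2 without the filter, 20 with scaling to the total, 0 without the trend (837 at an unadjusted p under 0.05), and between 43 without control 2 and 122 without cyclopamine 1, with 79 without control 1 and 84 without cyclopamine 2. edgeR called 40 and DESeq2 52.

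With a replicate block limma called 351 genes and 2 members, Gpnmb and Atp6v0d1 (0.48, adjusted p = 0.0128). The labels tie the replicate number to no litter or day, so the libraries share only a number. Deviations of same-numbered libraries from their group means had a correlation of 0.27 across 13568 genes, which are not independent.

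Between 26 and 32 members were higher in cyclopamine over all settings. The proton pump median ran from 0.16 to 0.25 with a library left out. Values that changed sign with a library left out ran from -0.025 to 0.26 for Atp6ap1, -0.12 to 0.20 for Atp6v1a, -0.032 to 0.20 for Cd63, -0.094 to 0.15 for Ctsa, -0.027 to 0.55 for Ctsl, -0.15 to 0.28 for Gaa, -0.041 to 0.17 for Glb1, -0.068 to 0.063 for Gusb, -0.22 to 0.20 for Hexa, -0.017 to 0.15 for Lamp1, -0.13 to 0.12 for Mcoln1, -0.20 to 0.13 for Naglu, -0.22 to 0.24 for Ppt1 and -0.11 to 0.062 for Tfe3. Gusb was at 0.0048 with scaling to the total of reads. The cause was not tested. Control 1 held 2 reads of Gpnmb, which limits the precision of its fold.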

Other observations

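Of 9 genes that deliver enzymes to the lysosome 5 were higher and 4 lower in cyclopamine, with a median log2 fold change of 0.03. Both cyclopamine libraries lay below both controls for 4 of the 9 (44.4%, against 15.8% of all genes), M6pr, Gnptab, Gga1 and Gga3, and above both for 1 (11.1%, against 16.8%). None of the 9 passed the test (0 by limma, with 0 at an unadjusted p under 0.05). Gnptab, which makes the mannose 6-phosphate tag, measured 45.8 and 43.5 CPM under control medium, against 36.999 and 37.9 CPM under cyclopamine (-0.25, SE 0.16, limma adjusted p = 0.977). Of 17 tested genes that sense nutrients at the lysosome 9 were higher and 8 lower, with a median of 0.02 and 0 past the test. Flcn, the folliculin gene that restrains TFEB and TFE3, measured 33.6 and 31.3 CPM against 40.8 and 40.6 CPM (0.32, SE 0.16, limma adjusted p = 0.885). Fnip1, its binding partner, measured 76.9 and 58.1 CPM against 83.7 and 80.5 CPM.

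Among 17 autophagy genes 10 were higher and 7 lower, with a median of 0.06 and 0 past the test. Both cyclopamine libraries lay above both controls for 3 of the 17 (17.6%), near the 16.8% of all genes. These were Map1lc3b, Uvrag and Atg9a. Map1lc3b, the membrane-bound tag of autophagosomes, measured 88.2 and 78.3 CPM under control medium, against 115 and 111 CPM under cyclopamine (0.45, SE 0.15, limma adjusted p = 0.505). Uvrag, which acts in autophagosome maturation, measured 30.7 and 22.7 CPM against 41.3 and 35.2 CPM (0.52, SE 0.19, limma adjusted p = 0.616). Both had no overlap between the groups. Atg9a, a membrane protein that seeds autophagosomes, measured 36.1 and 30.1 CPM against 37.7 and 42.0 CPM (0.27, SE 0.17), again with no overlap.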
